A study of Mus musculus with 46 samples.

Results

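Of the 33331 genes in the deposited tables, 8 that are used as markers of surface epithelium and mesothelium are described here, chosen by symbol: Upk3b, Msln, Lrrn4, Krt7, Krt8, Krt18, Krt19 and Upk1b. They were followed through 46 poly(A) RNA libraries, 24 XX and 22 XY, each made from the pair of gonads of mouse embryos at E12.5. The embryos carried induced mutations in Enh13, a distant enhancer of Sox9, a gene of testis formation. Both sexes had a wild type and heterozygotes for 1bp-ins and for 3bp-del, with 3 libraries in each of these groups. Both also had homozygotes for 1bp-ins and for 3bp-del, with 5 libraries each, and 3bp-12bp-del homozygotes, with 5 XX and 3 XY libraries, which makes 12 groups. The labels do not explain the genotype 3bp-12bp-del. They also do not state that replicates came from different embryos, so p-values measure only the spread between libraries, which may be technical.

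The developing gonad is covered by coelomic epithelium, a surface layer that lines the body cavity and also gives rise to supporting cells early in gonad formation. Mesothelium, the mature lining of the body cavities, shares many of its genes. Simple epithelia of this kind hold filaments in which a type II keratin (Krt7 or Krt8) pairs with a type I keratin (Krt18 or Krt19). Upk3b and Upk1b are uroplakins, membrane proteins first known from the bladder lining; Upk1b is a tetraspanin, and Upk3b is widely used to mark mesothelium. Msln encodes mesothelin, a surface glycoprotein anchored by a lipid, and Lrrn4 a membrane protein with leucine-rich repeats. None of the 8 genes belongs to 1 cell type: simple keratins are also made by the ducts and tubules of the mesonephros, the transient kidney beside the gonad, and by other epithelia. In RNA from whole gonads, fewer cells of a type and less RNA per cell cannot be told apart.

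In mm10 with the GENCODE M21 annotation, 3 of the 4 keratin genes lie on chromosome 15: Krt7 at chr15:101411043-101430313 on the plus strand, Krt8 at chr15:101996698-102004482 on the minus strand and Krt18 at chr15:102028180-102032027 on the plus strand. Krt8 and Krt18 are neighbours read away from each other, with 23.7 kb between their 5′ ends. Krt19 lies at chr11:100140810-100148665 (minus), Upk3b at chr5:136038496-136046487 (plus), Upk1b at chr16:38773184-38800328 (minus), Lrrn4 at chr2:132868305-132880891 (minus) and Msln at chr17:25748613-25754378 (minus).

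The promoters of Krt8 and Krt18, the 2 genes whose levels moved together in these libraries, and of Krt7, a keratin gene on the same chromosome, are shown as the 250 bases before the RefSeq start (GRCm38.p6). They cover chr15:102004343-102004592 (minus), chr15:102027966-102028215 (plus) and chr15:101412153-101412402 (plus), in that order, and each is written 5′ to 3′ on the strand of its gene. The RefSeq starts of these genes lie inside the GENCODE spans given above. The Krt7 window thus lies wholly within the span of its gene, and those of Krt8 and Krt18 in part. Capitals mark the GC box (GGGCGG, or its reverse complement).
Krt8: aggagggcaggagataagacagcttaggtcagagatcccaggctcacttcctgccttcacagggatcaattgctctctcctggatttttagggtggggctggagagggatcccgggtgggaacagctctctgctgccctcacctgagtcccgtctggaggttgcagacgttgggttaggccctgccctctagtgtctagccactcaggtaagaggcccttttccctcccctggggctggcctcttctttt
Krt18: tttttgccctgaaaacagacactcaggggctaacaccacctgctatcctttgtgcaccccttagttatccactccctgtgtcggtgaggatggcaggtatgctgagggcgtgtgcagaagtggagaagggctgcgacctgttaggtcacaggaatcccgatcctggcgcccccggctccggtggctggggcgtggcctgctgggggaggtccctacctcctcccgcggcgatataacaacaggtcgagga
Krt7: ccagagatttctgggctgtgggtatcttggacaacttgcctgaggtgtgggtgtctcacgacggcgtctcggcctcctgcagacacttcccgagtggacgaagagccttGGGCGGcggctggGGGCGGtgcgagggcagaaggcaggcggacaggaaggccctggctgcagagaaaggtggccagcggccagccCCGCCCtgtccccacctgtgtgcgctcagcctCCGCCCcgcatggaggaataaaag
RefSeq promoters were matched for 5 of the 8 genes. Both strands were searched for the TATA box (TATAAA), which 12.4% of all 32851 mouse promoters of this length held, and for the GC box, which 32.7% held. They were also searched for the AP-1 motif (TGANTCA), held by 6.7% of promoters, for the NR5A1 motif (AAGGTCA), held by 4.1%, and for the SOX motif (AACAAT), held by 9.4%. The Krt7 window held 4 GC boxes, whose first bases lie 141, 128, 56 and 24 bases before the start, and none of the other motifs. No match was found in the windows of Krt8 and Krt18, which says only that these letters are not there.

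Library totals lay between 29909111 and 46150400 estimated counts. Sox9 followed the sex labels of the wild types: its mean was 3.83 ± 0.98 TPM (SD, n = 3) in XX and 50.01 ± 11.58 TPM (SD, n = 3) in XY. In the 3 XX homozygous groups its mean was 59.3 to 81.7 TPM, so it cannot check the sex label of those libraries. Markers of the gonadal soma (Nr5a1, Gata4, Wt1, Lhx9, Emx2 and Cbx2) had a mean of 7.33 to 8.34 log2 CPM in all 46 libraries. Here 3 libraries stood apart, a judgement made after their values were seen: replicate 1 of the XY 3bp-del homozygotes in the surface markers, and replicate 3 of XY wild type and replicate 4 of the XX 3bp-del homozygotes in 7 mesonephros markers (Pax2, Pax8, Cdh16, Wnt9b, Ret, Lhx1 and Gata3). Many results that rest on one of them are given with and without it, but not all.

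Length-scaled levels separated the 8 genes into abundant, intermediate and nearly silent. Over the other 43 libraries the median was 46.8 TPM for Upk3b (lowest 39.1, highest 64.4) and 43.5 TPM for Krt8 (37.4 to 80.7), so these neighbours in the order overlapped. Krt18 followed with a median of 27.3 TPM (18.2 to 62.4), Krt7 with 21.6 (13.95 to 28.42), Lrrn4 with 16.5 (up to 25.4), Krt19 with 14.6 (8.89 to 30.01) and Upk1b with 7.76 (4.77 to 10.9). Each of these ranges overlapped the next one in the order. Msln, the mesothelin gene, was at the limit of detection, with a median of 0.06 TPM, a highest value of 0.39 in those 43 libraries and a median of 2 counts over all 46. It was at 0 in 7 libraries, and among the comparisons fitted on their own groups with all libraries it passed the filter on low counts only in the sex difference for 3bp-del homozygotes, where replicate 1 of the XY group holds nearly all of its counts. The genes also differed in how far they varied over the 43 libraries: the coefficient of variation was 12.2% for Upk3b, 16.6% for Lrrn4, 19.3% for Krt7, 21.8% for Krt8, 22.2% for Upk1b, 34.0% for Krt18 and 34.5% for Krt19. The plot of the 8 genes in every library shows these levels.

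**Figure D1:**
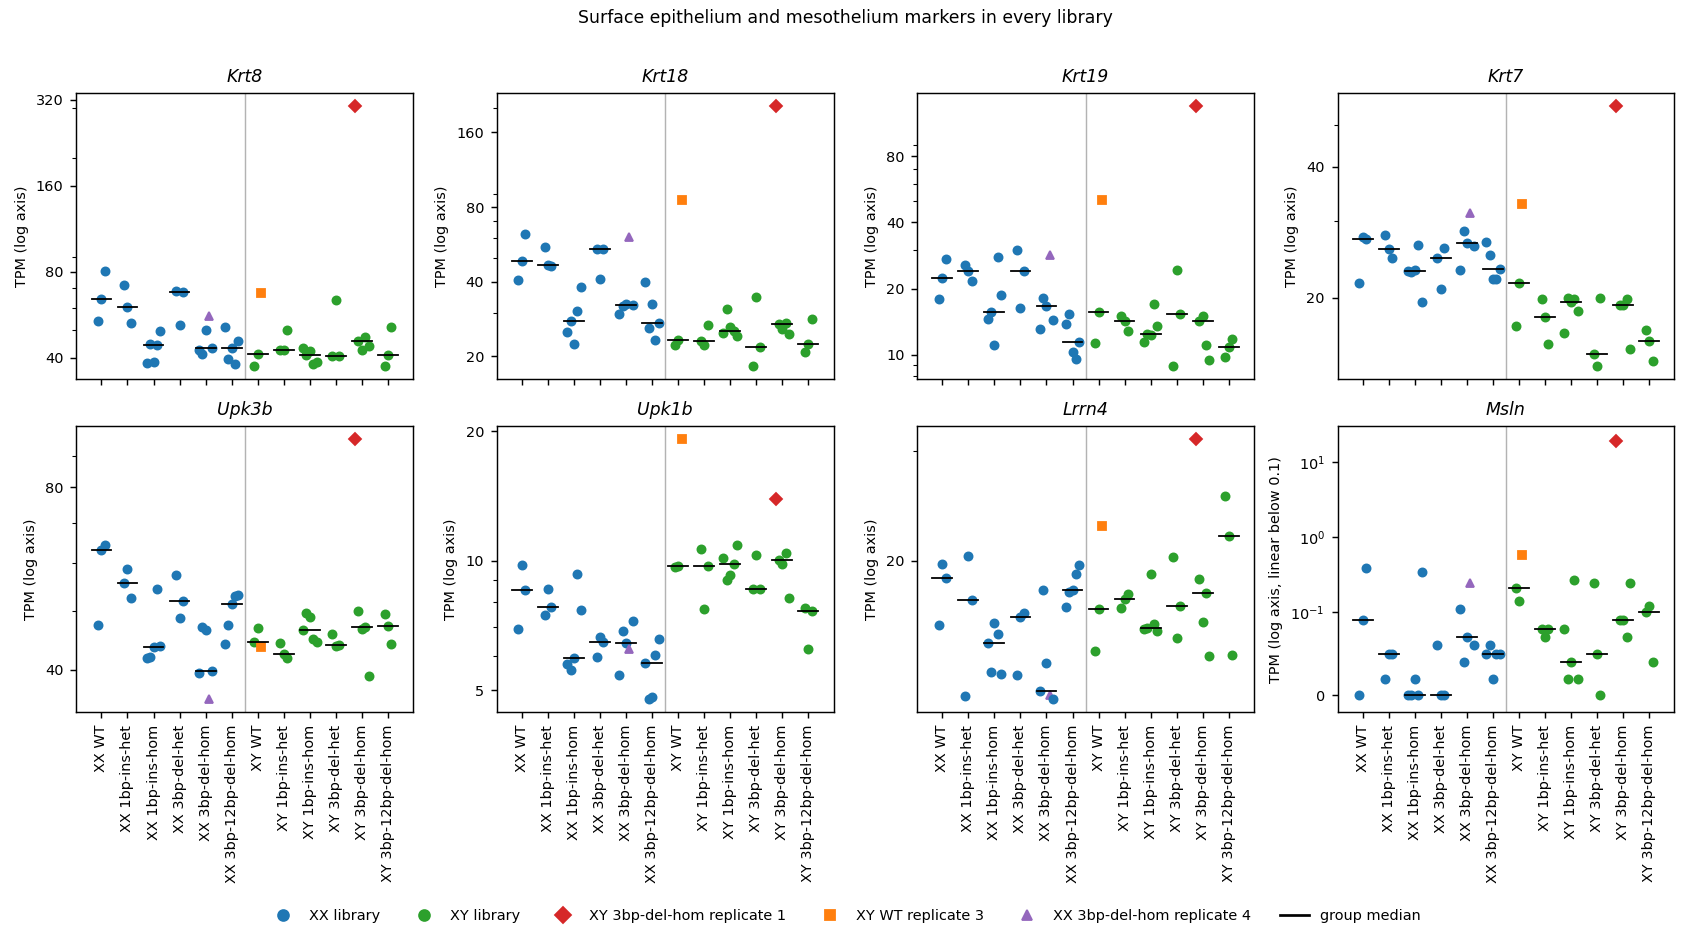
TPM (y, log axes; for Msln linear below 0.1) of the 8 surface markers in each of the 46 libraries, by group (x); points are libraries, bars are group medians, and 3 libraries that stand apart have their own symbols. Krt18 is at 40.8 to 62.4 TPM in the XX wild-type and heterozygous libraries, and replicate 1 of the XY 3bp-del homozygotes is the highest library for every gene except Upk1b.

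In TPM, Krt8 and Krt18 were higher in all 9 XX wild-type and heterozygous libraries than in 14 of the 15 XX homozygous ones. Krt18, the type I partner, was at 40.8, 48.5 and 62.4 TPM in the 3 XX wild-type libraries, at 55.1, 46.5 and 46.2 in the 1bp-ins heterozygotes and at 54.0, 40.8 and 54.1 in the 3bp-del heterozygotes. In XX homozygotes it was at 25.2, 27.8, 22.5, 30.4 and 37.99 TPM with 1bp-ins, at 29.7, 31.8, 32.5, 60.4 and 32.1 with 3bp-del, and at 39.9, 26.1, 32.6, 23.3 and 27.3 with 3bp-12bp-del. All 9 libraries without a homozygous mutation thus lay at or above 40.8 TPM, and 14 of the 15 homozygous libraries at or below 39.9, the exception being replicate 4 of the 3bp-del homozygotes. Krt8, the type II partner, gave the same picture: 53.8, 64.4 and 80.7 TPM in wild type, 71.8, 60.4 and 52.9 in 1bp-ins heterozygotes and 68.7, 52.2 and 68.0 in 3bp-del heterozygotes. Its levels were 38.4, 44.7, 38.6, 44.2 and 49.7 TPM in 1bp-ins homozygotes, 42.7, 41.4, 50.1, 55.9 and 43.3 in 3bp-del homozygotes and 51.3, 39.7, 43.5, 38.1 and 45.7 in 3bp-12bp-del homozygotes. The same single library exceeded the lowest of the 9 others, which was at 52.2 TPM. The split was less complete in TMM-scaled CPM, where 3 homozygous libraries exceeded the lowest of the 9 for Krt8 (63.8, 65.3 and 70.8 against 59.05 CPM) and 2 for Krt18 (34.4 and 54.1 against 31.5 CPM). On that scale the 1bp-ins homozygotes overlapped wild type for both genes. This split over genotypes is a description of pooled groups and was not tested as such. The share of all genes that split in this way was not computed. The tests follow group by group, and all XX comparisons share the 3 XX wild-type libraries.

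In XX 3bp-12bp-del homozygotes, 4 of the 7 markers tested were lower than in XX wild type and 0 were higher, by edgeR's quasi-likelihood test at a Benjamini-Hochberg adjusted p under 0.05. Of all 15957 genes tested, 25.6% were called and 11% were called lower. The median log2 fold change was -0.48 over the 7 markers and 0.00 over all genes. Krt19, a small type I keratin, fell most, by 0.76 ± 0.17 on the log2 scale (SE; adjusted p = 0.0113): it was at 17.98, 22.3 and 27.3 TPM in wild type and at 13.8, 15.3, 10.3, 9.61 and 11.5 in the homozygotes, with no overlap between the groups. Krt18 fell by 0.67 ± 0.18 (adjusted p = 0.0252) and Krt8 by 0.51 ± 0.12 (adjusted p = 0.0159), also with no overlap. The share of all genes whose groups did not overlap was not computed, so the lack of overlap is a description only. The uroplakin Upk1b fell by 0.48 ± 0.15 (adjusted p = 0.0356), from 6.94, 9.76 and 8.53 TPM to 5.78, 4.77, 4.82, 6.05 and 6.58, and in TMM-scaled CPM its groups overlapped. Krt7 (-0.07 ± 0.11, adjusted p = 0.691), Upk3b (-0.13 ± 0.12, adjusted p = 0.456) and Lrrn4 (0.11 ± 0.09, adjusted p = 0.406) were not called. DESeq2 called the same number, 4, and 4810 of all 15957 genes. In 1 fit over all 12 groups only the Upk1b call remained (adjusted p = 0.0287), with adjusted p = 0.286 for Krt18, 0.314 for Krt19 and 0.327 for Krt8. Leaving out replicate 2 of the homozygotes or replicate 2 or 3 of XX wild type ended the Krt18 call (adjusted p = 0.0526, 0.0647 and 0.0875). The Upk1b call ended without any 1 of replicates 1, 2 and 3 of the homozygotes (0.0571, 0.0716 and 0.0511) or replicates 2 and 3 of wild type (0.158 and 0.101).

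Mesonephros and stromal markers moved in the same comparison. Of the 7 mesonephros genes, 3 fell and 0 rose (Ret, Pax8 and Pax2), with a median log2 fold change of -1.18, and their summed level was 47.4 to 80.4 CPM in XX wild type and 19.7 to 32.03 CPM in the homozygotes. Of 7 stromal genes 4 fell and 1 rose, with summed levels of 2548 to 3019 and 1900 to 2187 CPM. The part of these cells in the keratin result was not tested. Of 5 adrenal and sympathetic genes tested 0 were called, with a median of -3.05. Their mean was 2.87 log2 CPM in replicate 1 of XX wild type, which also had the highest mesonephros mean of that group (3.07), and -1.56 to -1.23 in its 2 fellows. Without that library all 4 markers remained called: Krt19 fell by 0.90, Krt18 by 0.81, Krt8 by 0.65 and Upk1b by 0.60 (adjusted p = 0.00888, 0.0188, 0.00429 and 0.0221). In that fit 19.4% of all genes were called.

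**Figure D2:**
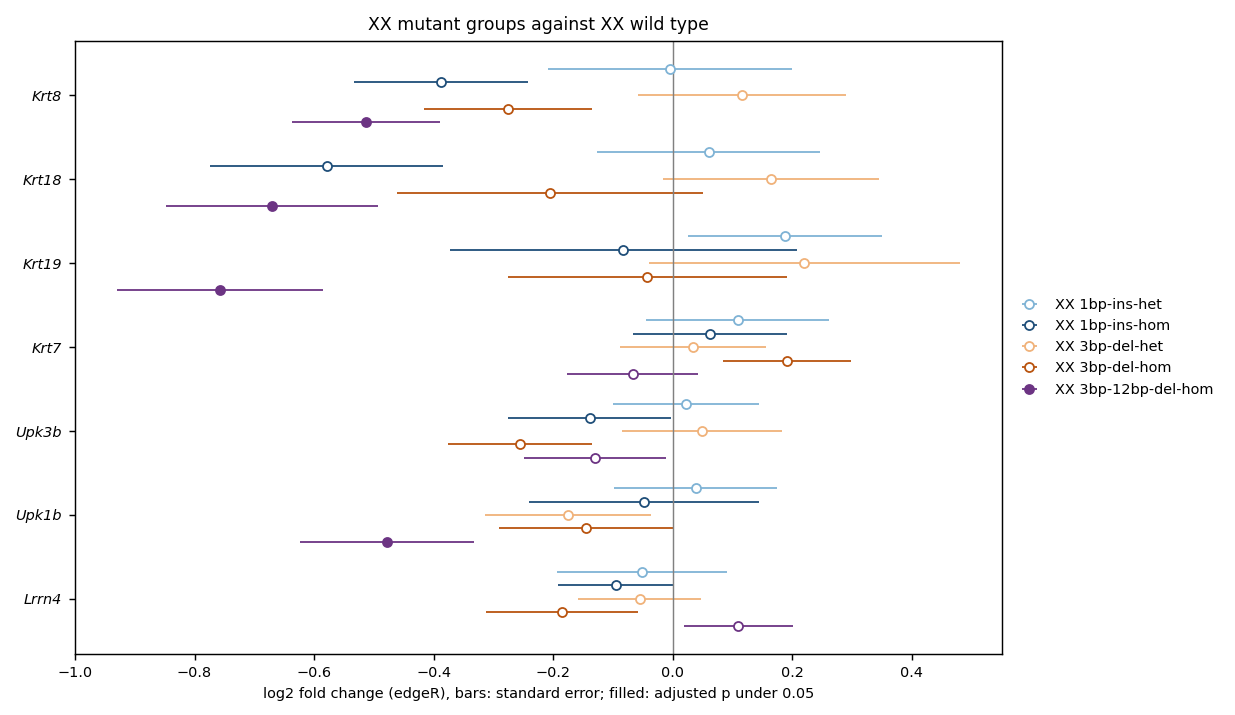
Log2 fold change (x) of 7 surface markers (y) in the 5 XX mutant groups against XX wild type by edgeR; bars are standard errors and filled points have an adjusted p under 0.05. The filled points are Krt8, Krt18, Krt19 and Upk1b in 3bp-12bp-del homozygotes, from -0.76 to -0.48.

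In XX 1bp-ins homozygotes, 0 of 7 markers were called, against 32.3% of the 16040 genes tested. At an unadjusted p under 0.05 the number was 2 (6991 over all genes), and DESeq2 called 2, both lower (5863 over all genes). Krt18 was at -0.58 ± 0.19 (adjusted p = 0.051) and Krt8 at -0.39 ± 0.15 (adjusted p = 0.0715), so both were just short of the threshold. With heterozygotes as the control, an alternative added after the data were seen, Krt18 fell by 0.65 ± 0.18 (adjusted p = 0.0395), where 17.3% of all genes were called. Krt19 did not follow in this group (-0.08 ± 0.29, adjusted p = 0.854): its 5 libraries, at 14.6, 15.7, 11.1, 27.8 and 18.7 TPM, ran from below to above the wild-type values. Upk1b was at -0.05 ± 0.19 (adjusted p = 0.873). Without replicate 5 of the homozygotes Krt18 fell by 0.70 and Krt8 by 0.44 (adjusted p = 0.0141 and 0.0466), and without replicate 1 of XX wild type by 0.72 and 0.52 (adjusted p = 0.0404 and 0.0286). In these fits 35.2% and 23.3% of all genes were called.

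In XX 3bp-del homozygotes, 0 of 7 markers were called, against 44.8% of the 16031 genes tested. Neither an unadjusted p under 0.05 nor DESeq2 gave any. Krt18 stood at -0.21 ± 0.26 (adjusted p = 0.557) with all 5 libraries. Without replicate 4, which was at 60.4 TPM where the others were at 29.7 to 32.5, it fell by 0.39 ± 0.13 (adjusted p = 0.0325), its groups did not overlap, and 51.6% of all genes were called. The share of all genes without overlap was not computed here either. In replicate 4 the mean of the mesonephros markers was 3.76 log2 CPM, against 0.83 to 1.80 in its fellows. The part of the mesonephros in the Krt18 level was not tested. Krt8 was at -0.28 ± 0.14 (adjusted p = 0.146) and Upk3b at -0.26 ± 0.12 (adjusted p = 0.115). Without replicate 1 of XX wild type Krt8 fell by 0.41 ± 0.13 (adjusted p = 0.0288) and Upk3b by 0.39 ± 0.10 (adjusted p = 0.0112), where 39.3% of all genes were called. Against the 3bp-del heterozygotes instead, Krt8 fell by 0.38 ± 0.12 (adjusted p = 0.0383; 27.1% of all genes called). Without replicate 4 as well, Krt18 fell by 0.59 ± 0.10 (adjusted p = 0.00112), Krt8 by 0.44 ± 0.11 (0.0139) and Upk3b by 0.24 ± 0.08 (0.0402), where 34.3% of all genes were called.

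In XX heterozygotes no marker was called, and none had an unadjusted p under 0.05. DESeq2 also called 0. The share of all genes called was 0% for 1bp-ins and 10.9% for 3bp-del. Krt18 was at 0.06 ± 0.19 and 0.16 ± 0.18, and Krt8 at -0.00 ± 0.20 and 0.12 ± 0.17, in these 2 groups.

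Krt7, Upk3b and Lrrn4 were not called in any XX mutant group with all libraries. Krt7, a type II keratin of ducts and other simple epithelia, was at 21.7, 27.6 and 27.4 TPM in wild type, and in the 3bp-del homozygotes at 23.2, 28.4, 26.8, 31.3 and 26.3 TPM. It was at 23.1, 22.98, 23.2, 26.4 and 19.6 TPM in the 1bp-ins homozygotes and at 26.9, 25.1, 22.1, 22.1 and 23.3 TPM in the 3bp-12bp-del homozygotes. All 3 homozygous groups overlapped wild type, and Krt7 was not called in any of the 5 comparisons with XX wild type (log2 fold changes from -0.07 to 0.19). Upk3b was at 47.5, 63.1 and 64.4 TPM in wild type, at 41.9, 41.99, 43.6, 54.3 and 43.7 TPM in 1bp-ins homozygotes and at 44.2, 47.4, 51.4, 53.1 and 53.2 TPM in 3bp-12bp-del homozygotes. It was lowest in the 3bp-del homozygotes, at 39.5, 47.1, 46.5, 35.8 and 39.9 TPM, with every library there below the lowest wild-type value in TPM. In TMM-scaled CPM these homozygotes and wild type overlapped, at 85.4 to 114 and 98.7 to 137 CPM. Replicate 1 of wild type, at 47.5 TPM, lay apart from the other 2 libraries of its group. Lrrn4 was at 15.8, 19.8 and 18.8 TPM in wild type, at 14.8, 13.3, 15.9, 15.3 and 13.2 TPM in 1bp-ins homozygotes and at 16.9, 17.8, 17.97, 19.1 and 19.7 TPM in 3bp-12bp-del homozygotes. In the 3bp-del homozygotes it was at 12.4, 17.98, 13.7, 12.2 and 12 TPM, with 4 of the 5 libraries below the lowest wild-type value in TPM. On the scale of TMM-scaled CPM they ran from 30.6 to 44.9 (median 33.0), against 34.6 to 43.4 in wild type. Without replicate 2 of that group, the highest, Lrrn4 fell by 0.29 ± 0.09 (adjusted p = 0.0301; 41.2% of all genes called).

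Between the wild types, 0 of 7 markers were called in XY against XX gonads, and 11% of the 15730 genes tested were. The number was 1 at an unadjusted p under 0.05 (4179 over all genes) and 1 by DESeq2 (Upk1b, adjusted p = 0.0363), which called 2818 genes in all. The XY group was uneven: Krt18 was at 22.3 and 23.2 TPM in replicates 1 and 2 and at 85.3 TPM in replicate 3, and Krt8 at 37.4, 41.2 and 67.2 TPM. Replicate 3 also had the highest mesonephros mean of all 46 libraries (4.65 log2 CPM, against 0.17 and 0.80 in its fellows), and the part of the mesonephros in its keratin levels was not tested. Krt18 was at -0.22 ± 0.45 (adjusted p = 0.787) and Krt8 at -0.39 ± 0.19 (adjusted p = 0.249). Without replicate 3, Krt18 was lower in XY (log2 fold change -0.96 ± 0.18, adjusted p = 0.00734), Krt8 was lower (-0.56 ± 0.18, adjusted p = 0.0477) and Upk1b higher (0.44 ± 0.15, adjusted p = 0.048). In that fit, which has 2 XY libraries, 43.3% of all genes were called, 21.5% higher and 21.8% lower. Upk1b was at 9.66, 9.72 and 19.2 TPM in XY and at 6.94, 9.76 and 8.53 TPM in XX, which overlapped narrowly in TPM and not in TMM-scaled CPM, and with all 6 libraries it gave 0.67 ± 0.22 (adjusted p = 0.0997). The plot of both fits shows that Krt18 and Krt19 have the widest errors when replicate 3 is in.

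**Figure D3:**
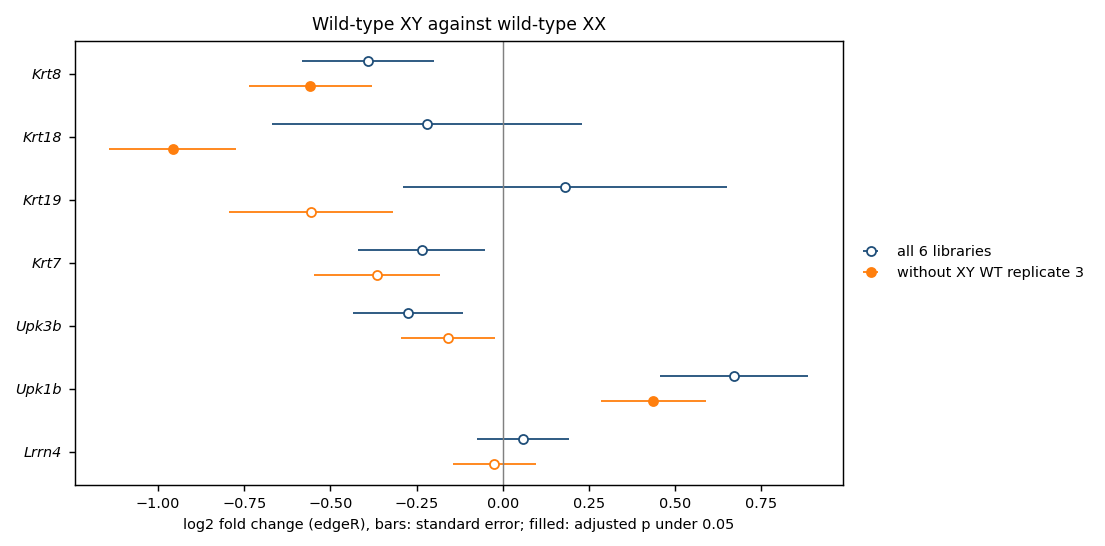
Log2 fold change (x) of 7 surface markers (y) in XY against XX wild type by edgeR, with all 6 libraries and without replicate 3 of XY wild type; bars are standard errors and filled points have an adjusted p under 0.05. Krt18 goes from -0.22 to -0.96 and Krt19 from 0.18 to -0.56 when that library is left out.

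Among XY gonads no marker was called in any of the 5 mutant groups against XY wild type, and few other genes were: 0% for both heterozygotes and for the 1bp-ins and 3bp-del homozygotes, and 0.013% for the 3bp-12bp-del homozygotes. Without replicate 3 of XY wild type no marker was called in these groups either, where 0% to 0.359% of all genes were. At an unadjusted p under 0.05 there were 0 markers in the 1bp-ins heterozygotes and the 3bp-del homozygotes and 1 in each of the other 3 groups, and DESeq2 called 0 in all 5. Over all genes those 3 groups had 2232 (1bp-ins homozygotes), 740 (3bp-del heterozygotes) and 1052 (3bp-12bp-del homozygotes) at that level. Krt18 was at 23.1, 22.3 and 26.8 TPM in 1bp-ins heterozygotes and at 24.7, 30.98, 26.3, 25.3 and 24.1 TPM in 1bp-ins homozygotes. It was at 18.2, 34.6 and 21.7 TPM in 3bp-del heterozygotes and at 20.7, 22.4 and 28.2 TPM in 3bp-12bp-del homozygotes. The 3bp-del homozygotes were at 26.98, 25.8, 27.3 and 24.5 TPM in replicates 2 to 5, and replicate 1 was far above them. Outside the 2 XY libraries that stand apart, the XY range of Krt18 was 18.2 to 34.6 TPM over 20 libraries. Upk3b, with 39.1 to 50.1 TPM in those 20 libraries, was the steadiest member. Krt7 was at 13.95 to 21.63 TPM in them and at 19.6 to 28.4 TPM in the 23 XX libraries that do not stand apart. In XY 3bp-12bp-del homozygotes Upk1b was at 7.76, 6.23 and 7.63 TPM, below all 3 XY wild-type libraries, and was not called (-0.79 ± 0.21, adjusted p = 0.567). With the 1 fit over all 12 groups, which includes replicate 3 of XY wild type, it was called (adjusted p = 0.0212). Leaving out 1 library at a time in the fit on its own groups, Upk1b ran from -0.92 to -0.54 and was not called (lowest edgeR adjusted p = 0.0845). Upk1b had the opposite order of medians, 9.69 TPM in XY and 6.58 TPM in XX, with overlapping ranges of 6.23 to 10.9 and 4.77 to 9.76 TPM. Lrrn4 had nearly equal medians, 16.8 TPM in XY and 16.2 TPM in XX. Against the 1bp-ins heterozygotes instead of wild type, Upk3b was higher in XY 1bp-ins homozygotes by 0.27 ± 0.06 (adjusted p = 0.0218; 12.6% of all genes called), at 46.5, 49.6, 48.9, 44.97 and 44.6 TPM against 44.3, 42.6 and 41.9.

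The difference between the effect of each homozygous genotype in XY and in XX was tested as an interaction term, the XY minus the XX log2 fold change. With all libraries no marker was called for 1bp-ins, 3bp-del or 3bp-12bp-del, where 1.04%, 3.83% and 0.597% of all genes were. No marker had an unadjusted p under 0.05, and DESeq2 called 0. The Krt18 terms were 0.12 ± 0.44, 0.81 ± 0.94 and -0.13 ± 0.49. With the 3 libraries that stand apart left out, the Krt18 term was 0.87 ± 0.26 for 1bp-ins (adjusted p = 0.0472, 9.53% of all genes called) and 0.65 ± 0.18 for 3bp-del (adjusted p = 0.0144, 29.4% called). The log2 fold change of Krt18 was thus lower in XX than in XY. For 3bp-12bp-del it was 0.63 ± 0.28 (adjusted p = 0.135; 17.9% called). These terms rest on 2 XY wild-type libraries.

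Krt8 and Krt18 varied together from library to library. After the group means were taken out, their log2 CPM correlated over the 46 libraries with Pearson's r = 0.929 and Spearman's rho = 0.913 (permutation test with 100000 draws, p = 1e-05 for both, the smallest it can give; adjusted p = 4.5e-05 and 9e-05 over 36 relations). The r was 0.885 without the 2 libraries farthest from the median of Krt18, and 0.893 over 43 libraries without the 3 that stand apart. For Krt19 the values were r = 0.91 and rho = 0.812 to Krt18 and r = 0.872 and rho = 0.76 to Krt8 (permutation adjusted p = 4.5e-05 for both r and 9e-05 for both rho). Without the 2 libraries farthest from the median of Krt19 these r were 0.788 and 0.727, and without the 3 libraries that stand apart 0.636 and 0.592. Krt7 gave r = 0.795 and rho = 0.475 to Krt8 and r = 0.765 and rho = 0.499 to Krt18 (permutation adjusted p = 4.5e-05 for both r, 0.00364 and 0.00274 for rho). Without the 2 libraries farthest from the median of Krt8, or of Krt18, these r were 0.448 and 0.476. Over the 43 libraries r was 0.2 and 0.165 (permutation adjusted p = 0.335 and 0.382), so neither call held without the 3 libraries. All libraries share the TMM scale, so these values are not free of library-wide differences. The ratio of Krt8 to Krt18 in TPM is given by group as a description and was not tested. Its mean was 1.31 ± 0.02 in XX wild type (SD, n = 3), and 1.25 ± 0.09 and 1.27 ± 0.01 in XX heterozygotes (n = 3 each). In XX homozygotes it was 1.52 ± 0.16 with 1bp-ins, 1.31 ± 0.23 with 3bp-del and 1.49 ± 0.18 with 3bp-12bp-del (n = 5 each). In XY it was 1.68 and 1.78 in wild-type replicates 1 and 2, 0.79 in replicate 3, and 1.56 to 1.98 as group means in the mutants. Of all 46 libraries only 2 had more Krt18 than Krt8, replicate 3 of XY wild type and replicate 4 of the XX 3bp-del homozygotes (ratio 0.93). The deposited Krt8 counts were not whole numbers in any library, unlike those of the other 7 genes. Whether reads of Krt8 were shared with other features was not tested, and its level is uncertain to that extent.

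**Figure D4:**
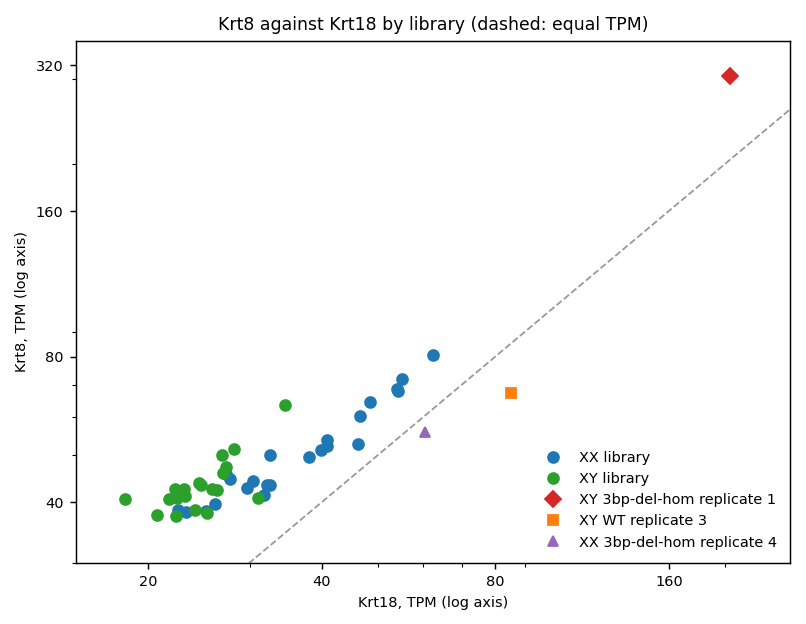
Krt8 (y) against Krt18 (x) in TPM, both on log axes, 1 point per library, coloured by sex, with the line of equal TPM dashed. XX libraries stretch along a common line up to 80.7 TPM of Krt8, and the 2 libraries with high mesonephros markers lie below the dashed line.

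Within groups, the mesonephros markers were related to Krt18 and Krt19 by Pearson's r and to Upk3b by Spearman's rho. Krt18 gave r = 0.408 with the mesonephros mean (permutation adjusted p = 0.0192), rho = 0.2 (adjusted p = 0.253), and Krt19 r = 0.363 (adjusted p = 0.0294), rho = 0.173 (adjusted p = 0.325). Without the 2 libraries farthest from the median of the mesonephros mean r was 0.198 and 0.201, and without the 3 libraries that stand apart -0.16 and -0.06, so the relation rests on those libraries. Upk3b gave r = -0.306 (permutation adjusted p = 0.0514) and rho = -0.398 (adjusted p = 0.017). That call also ended: rho was -0.297 (permutation adjusted p = 0.0906) without the library highest in mesonephros markers and -0.255 (adjusted p = 0.211) without the 3 libraries, and r was -0.154 without the 2 farthest. Krt8 gave r = 0.16 (permutation adjusted p = 0.247) and rho = 0.051 (adjusted p = 0.82). The plot of both means shows that most libraries vary in mesonephros markers with little change in the surface markers.

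**Figure D5:**
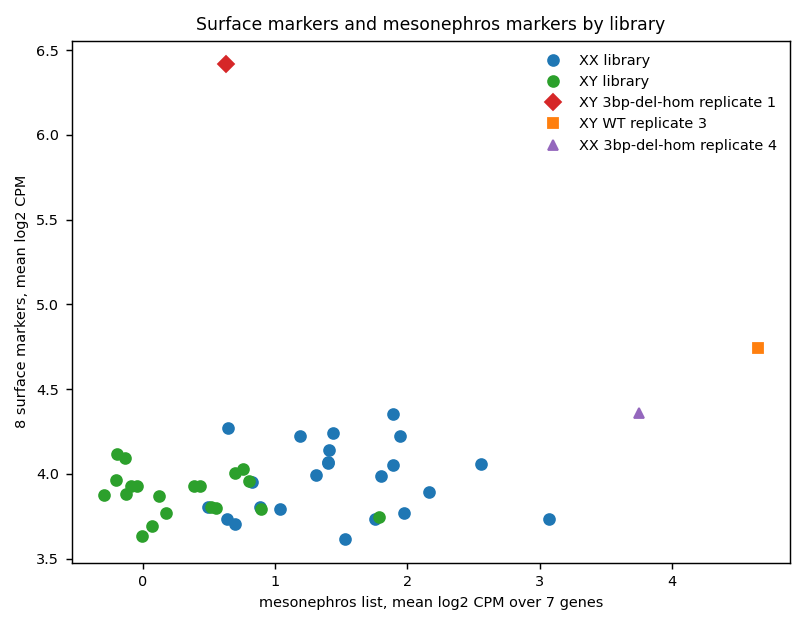
Mean log2 CPM of the 8 surface markers (y) against that of 7 mesonephros markers (x), 1 point per library, coloured by sex, with 3 libraries marked. Replicate 1 of the XY 3bp-del homozygotes is at 6.42 for the surface markers with 0.63 for the mesonephros, and replicate 3 of XY wild type at 4.74 with 4.65.

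Replicate 1 of the XY 3bp-del homozygotes held all 8 genes at more than its 4 fellow libraries did. Krt8 was at 304 TPM, against 45.9, 42.6, 47.3 and 43.9 in replicates 2 to 5, and Krt18 at 204 TPM, against 26.98, 25.8, 27.3 and 24.5. Krt19 reached 135 TPM, against 14.3, 14.95, 11.1 and 9.51, and Msln 19.2 TPM, against 0.09, 0.09, 0.07 and 0.24. Msln rested on 833 counts there and on 1, 5, 4 and 6 in the fellows, so no ratio is given for it. As ratios to the mean TPM of the 4 fellows, Krt19 was 10.9, Krt18 7.81, Krt8 6.77, Krt7 2.99, Upk3b 2.1, Lrrn4 1.89 and Upk1b 1.45 times as high. The library was the highest of all 46 for 7 of the 8 genes, and for Upk1b it was exceeded by replicate 3 of XY wild type (19.2 TPM against 13.9). It was singled out by these levels, and the share of all genes highest in it was not computed. For Msln the next library was replicate 3 of XY wild type, at 0.58 TPM. With this library in, Krt8 in XY 3bp-del homozygotes was at 1.06 ± 0.74 against XY wild type (adjusted p = 0.566), and with the 3 libraries that stand apart left out at 0.22 ± 0.10 (adjusted p = 0.426; 0.0626% of all genes called).

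Genes of other epithelia were high in the same library. The counts of genes highest there are again given without the share over all genes, so they have no background to be read against. Of 11 genes of epithelial junctions 10 were at their highest of 46 there, among them Cdh1, the epithelial cadherin, at 65.4 TPM against 18.9 in the next library, and Cldn4, a claudin, at 90.6 against 30.4. Of 11 other keratins 5 were highest there, and Krt5, a keratin of basal epithelial cells, was at 147 TPM against 1.84 in the next library. Of the 3 other uroplakins Upk1a was at 64.9 TPM against 1.36 and Upk2 at 14.2 against 1.16, while Upk3a, the other defining uroplakin of the bladder surface, was at 0. Of 12 other mesothelium genes only Bnc1 and Upk3bl were highest there (17.9 against 17.7 TPM, and 33.8 against 0.77). The mean of that list, 3.56 log2 CPM, was nonetheless above the 2.45 to 3.18 of the other 43 libraries. Wt1, which mesothelium and the gonadal soma share, was at 191 TPM, below the 201 to 208 TPM of its fellows. None of the 7 mesonephros genes was highest there, and their mean of 0.63 log2 CPM lay within the range of the other 43 libraries (-0.29 to 3.07). The part of other epithelia in this library's marker levels was not tested.

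Some other genes of these families were called, which is to be read against the share of all genes called. In XX 3bp-12bp-del homozygotes that share was 25.6%. There 1 of 11 other mesothelium genes tested was higher (Pdpn, podoplanin, 0.46 ± 0.05, adjusted p = 0.000497), with a list median of 0.11. Of the 10 junction genes tested 2 were higher, Jup, or plakoglobin (0.51 ± 0.13, adjusted p = 0.0209), and Dsp, desmoplakin (0.27 ± 0.07, adjusted p = 0.0192). Of 6 other keratins tested 1 was lower, Krt20, which gut and bladder surface cells make (-1.52 ± 0.40, adjusted p = 0.0204). Krt20 was also lower in XX 1bp-ins and 3bp-del homozygotes (-1.77 ± 0.29, adjusted p = 0.00268, and -1.63 ± 0.23, adjusted p = 0.000297) and in XY against XX wild type (-2.79 ± 0.37, adjusted p = 0.00491). Its median was 2.56 TPM in XX wild type, 0.69 to 0.74 TPM in the XX homozygous groups and 0.29 TPM in XY wild type. Pdpn was higher in the same XX groups (0.51 ± 0.09, adjusted p = 0.0036, and 0.50 ± 0.10, adjusted p = 0.00302) and in XX 3bp-del heterozygotes (0.33 ± 0.06, adjusted p = 0.0171). Of all genes, 32.3% were called in XX 1bp-ins homozygotes and 44.8% in XX 3bp-del homozygotes. The shares were 10.9% in XX 3bp-del heterozygotes and 11% between the wild types. Muc16, a mucin of mesothelial and other epithelia, was lower in XX 3bp-del homozygotes (-1.01 ± 0.22, adjusted p = 0.00388), and C3, a complement protein, in XY against XX wild type (-0.95 ± 0.23, adjusted p = 0.0448). Wt1 and Lhx9, which coelomic epithelium shares with the gonadal soma, had medians of 340 and 177 TPM in XX wild type and 229 and 106 TPM in XY wild type.

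Genes with the most similar course over the libraries differed between members. By Pearson's r of log2 CPM over the 46 libraries, given as a description, Krt18 was most like Mboat1 (0.88), Bnipl (0.874) and Ndrg2 (0.868), and Krt8 like Ndrg2 (0.858), Emp2 (0.856) and Dusp22 (0.825). Without the 3 libraries that stand apart the leading genes were others: Efna1 (0.9), Agtr1a (0.889) and Ech1 (0.887) for Krt18, and Hadh (0.853), Cpt2 (0.825) and As3mt (0.798) for Krt8. Lrrn4 was nearest to Cdh3, which encodes P-cadherin, both with all libraries (0.794) and over the 43 (0.701). Upk1b had Mfap4 among its 3 nearest genes both times (0.803 and 0.83). Krt7 was nearest to Nherf1 (0.862) and over the 43 libraries to Arl4d (0.909). These values include the differences between sexes and genotypes.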

How the data were processed

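RNA was taken from whole gonads and sequenced as poly(A) libraries made with NEB kits from 140 ng, per the labels' protocols. Reads were placed on mm10, a build named in the submitters' processing notes, while no source used here names an aligner, a quantifier or an annotation. The authors deposited estimated counts per gene, of which 8 to 8.9% per library are not whole and which were rounded here, and a table of TPM, in which the authors' scaling by gene length is kept and columns sum to 923510 to 945851. Each table has 1 column with no matching sample, which was not used.

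Counts were tested with edgeR 4.0.16 in R 4.3.3 (TMM, filterByExpr, robust quasi-likelihood F test; SE as the log2 fold change over the square root of F), each comparison on its own groups, with Benjamini-Hochberg adjustment over all genes tested. The fit was tested on simulated data. CPM values were scaled by TMM over all libraries, with a prior count of 2 for log2 CPM, and 17033 genes, all 8 markers among them, passed the filter over all groups. Correlations used log2 CPM minus the group mean. Alternatives were DESeq2 1.42.0, RLE normalization, no filter, 1 fit over all groups, replicate blocks, removal of the trend with gene length, leaving out each library, and, chosen after seeing the data, leaving out 3 libraries together and heterozygotes as control. Of 71 replicate pairs none was a double deposit (lowest chi-square per degree of freedom 13.3). The members and 15 gene lists were chosen with earlier results of these data known. Named genes are the 8 members, up to 3 called and 1 uncalled gene per list and comparison, and the 3 most similar genes per member. The text gives part of them, and names of library-specific genes and of Wt1, Lhx9, Cdh1 and Cldn4 were chosen after their values were seen. A further gene of the mesonephros list is not reported here and enters no value of that list.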

Additional observations from a re-analysis of the deposited data

Results flagged for a closer look

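In groups of 5 libraries, the 8 markers were checked for a highest or lowest library with a large gap to the nearest one. The gap was set against the range of the group on log2 CPM (Dixon's ratio), and the values below are printed in CPM. Of 40 combinations of gene and group 11 met this. A single check meets it by chance about 1 time in 20. The 40 checks share libraries, and several markers vary together, so the 11 cannot be set against that rate. Replicate 1 of the XY 3bp-del homozygotes accounts for 6 of them: Krt8 at 354 CPM, Upk3b at 211 CPM, Krt18 at 168 CPM, Krt19 at 107 CPM, Krt7 at 79.4 CPM and Msln at 23.3 CPM.

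The other 5 lie in other libraries. Krt18 was at 54.1 CPM in replicate 4 of the XX 3bp-del homozygotes and at 29.9 CPM in replicate 2 of the XY 1bp-ins homozygotes, each the highest of its group. Lrrn4 was at 46.9 CPM in replicate 3 of the XY 1bp-ins homozygotes, also the highest. Msln, which rests on a few counts, was at 0.465 CPM in replicate 5 of the XX 1bp-ins homozygotes (highest) and at 0.0267 CPM in replicate 3 of the XX 3bp-12bp-del homozygotes (lowest).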

How the results depend on the processing

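Numbers of called markers and genes are given at an adjusted p under 0.05, and the cause of each change was not tested. In XY against XX wild type, 1 marker was called in 1 fit over all 12 groups, 1 by DESeq2 and 3 without the 3 libraries that stand apart, which with the heterozygous controls was chosen after seeing the data. In XX 1bp-ins homozygotes it was 2 by DESeq2 (5863 of all 16040 genes called) and 2 with the replicate block (4859). It was 1 each with RLE (5198), with the length trend removed (3439) and with heterozygotes as control (2749 of 15933). In XX 3bp-del homozygotes it was 2 with the replicate block (8279 of all 16031 genes called) and 1 without the library that stands apart (8191 of 15875). It was 1 with heterozygotes as control (4326 of 15979) and 3 with both (5424 of 15830). In XX 3bp-12bp-del homozygotes it was 1 in the 12-group fit (3596 of all 17033 genes called) and 0 with the replicate block, where Krt18 had an adjusted p of 0.146. It was 1 in XY 3bp-12bp-del homozygotes (12-group fit), 1 in XY 1bp-ins homozygotes (heterozygotes as control), and 1 in each of the 1bp-ins and 3bp-del interactions without the 3 libraries.

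Over all genes, the 12-group fit called 5044 in XY against XX wild type, 2 in XX 1bp-ins and 723 in XX 3bp-del heterozygotes. Against XY wild type it called 1, 802, 188, 653 and 210 genes in 1bp-ins heterozygotes and homozygotes, 3bp-del heterozygotes and homozygotes and 3bp-12bp-del homozygotes, and 512, 1954 and 437 in the interactions, given in the order 1bp-ins, 3bp-del, then 3bp-12bp-del. DESeq2 called 2818, 89 and 2702, then 40, 120, 17, 178 and 144, and in the interactions 407, 1570 and 425. Without the 3 libraries the numbers were 6937 between wild types, 5, 3, 10 and 56 in XY heterozygotes (1bp-ins, 3bp-del) and 3bp-del and 3bp-12bp-del homozygotes, and 1590, 4870 and 2957 in the interactions. Heterozygotes as control gave 2749 (XX 1bp-ins), 4326 (XX 3bp-del), 1958 (XY 1bp-ins) and, without the library that stands apart, 229 (XY 3bp-del). Removing the length trend gave 3439 in XX 1bp-ins homozygotes, 447 in XX 3bp-del heterozygotes, 2 in XY 3bp-del heterozygotes, 1 in XY 3bp-12bp-del homozygotes and 147 in that interaction. No filter gave 1 and 3 in XY heterozygotes (1bp-ins, 3bp-del) and 1 in XY 3bp-del homozygotes.

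Replicate numbers did not pair the libraries: correlations of same-numbered libraries ran from -0.299 to 0.283, and 0 comparisons had all of them over 0.1. With the replicate block the number of genes called was 1088 between wild types, 507 in XX 3bp-del heterozygotes, 1217 in XX and 0 in XY 3bp-12bp-del homozygotes, 398 in the 3bp-del and 11 in the 3bp-12bp-del interaction.

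Leaving out 1 library at a time, the markers called ranged from 0 to 3 between wild types, 0 to 2 in XX 1bp-ins and in XX 3bp-del homozygotes, 2 to 4 in XX 3bp-12bp-del homozygotes and 0 to 1 in the 1bp-ins interaction, and were 0 in every other comparison. The genes called ranged from 639 to 6937 between wild types, and in XX from 0 to 1 (1bp-ins) and 166 to 1226 (3bp-del) in heterozygotes and from 3026 to 5604 (1bp-ins), 5620 to 8191 (3bp-del) and 2276 to 4493 (3bp-12bp-del) in homozygotes. In XY they ranged from 0 to 5 and 0 to 3 in 1bp-ins and 3bp-del heterozygotes, were 0 in 1bp-ins homozygotes, and ranged from 0 to 3 and 0 to 56 in 3bp-del and 3bp-12bp-del homozygotes. In the interactions they ranged from 71 to 1590, 234 to 3835 and 10 to 2957. Of 868 single-gene values from these fits 848 stayed on their side of the threshold, 8 were lost, 12 gained and 0 reversed, and 83 uncalled ones changed sign. Of 706 from the other alternatives the numbers were 676, 7, 23 and 0, with 50 sign changes.

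Of the 36 correlations 29 were called, and 13 without the 3 libraries. There Krt18 and Krt19 with the mesonephros mean went to -0.159 and -0.0594, Msln with Lrrn4, Krt7 and Krt19 to -0.0522, -0.17 and -0.0471, and Lrrn4 with Krt8, Krt18 and Krt19 to -0.35, -0.38 and -0.14. Without the 2 farthest libraries Lrrn4 with Krt8 was at -0.19 and with Krt19 at -0.0053. Depth limits Msln alone, at a median of 2 counts.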

Other observations

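Genes that no list holds were also at their highest in replicate 1 of the XY 3bp-del homozygotes, by the gap to the next library (chosen after their values were seen). Gabrp, a GABA receptor subunit found in several epithelia, was at 263 TPM there and at 2.38 TPM in the next library. Tac2, which encodes neurokinin B, was at 583 TPM against 39.0, Tgm1, a transglutaminase of stratified epithelium, at 23.0 against 1.02, and Ppl, or periplakin, at 26.6 against 1.69. Grhl3, a transcription factor of surface ectoderm and bladder, was at 35.5 TPM against 3.43, and Fos, an immediate early gene, at 38.2 against 1.39. The stromal mean of that library, 8.75 log2 CPM, was above the 7.02 to 8.19 of the other 43, and 2 of the 7 stromal genes were at their highest of 46 there. No share over all genes was computed for that count. Replicate 5 of the XX 1bp-ins homozygotes was the next library for Gabrp, Tac2, Upk1a and Upk2.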
